A study of Mus musculus with 8 samples.

Results

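Heat shock proteins and J-domain proteins are the molecular chaperones that fold, hold and hand on other proteins. They were taken as all genes whose single symbol in the array annotation begins with Hspa, Hspb, Hspd, Hspe, Hsph, Hsp90 or Dnaj, together with Cryab and Bag3. This gave 74 genes of the 18193 with a probe set of 1 gene, and 65 of them were bright enough to be tested among 11062 genes. The rule by name also takes in Hspbp1, Hspbap1 and Hspb11, which are named for heat shock proteins but have other roles.

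Total RNA of mouse gastrocnemius, the large calf muscle, was measured on 8 Affymetrix arrays, 1 per sample. The 4 control samples were labelled wild type, and the 4 GR_KO samples were labelled as knockout of the glucocorticoid receptor, which the design text writes as GR(i)skm-/-. Both groups had the C57/Bl6J background and carry no treatment in the labels. The labels name no age, sex or promoter for the knockout, and whole muscle also holds vessels, nerve, connective tissue and blood cells.

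Chaperones of the HSP70 family bind exposed stretches of unfolded proteins in a cycle driven by ATP. J-domain proteins bring clients and start that cycle, and exchange factors such as Bag3 and Hspbp1 end it. Small heat shock proteins hold damaged proteins without ATP and are a large part of the stress defence of muscle fibres, where Cryab and several Hspb proteins sit at the Z-disc. HSP90 and its partners hold the glucocorticoid receptor in the form that can bind hormone. Heat shock factors switch on many of these genes through repeats of nGAAn in the promoter, while the receptor binds pairs of half-sites.

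RefSeq promoter windows of GRCm38.p6, each from 250 bases before to 50 bases after a gene start, were matched for 60 of the 74 genes. A run of 3 alternating heat shock units, GAANNTTCNNGAA on either strand, was found in the windows of 4 of these 60 genes (6.67%), Hspe1, Hspd1, Dnajb6 and Hsph1, against 0.662% of all 27025 genes with a window. The shorter GAANNTTC, which the longer motif contains, was found for 15 of the 60 genes, against 9.04% of all genes. The receptor's half-site pair ACANNNTGT was found for 2 of 60, Hspb3 and Hspa1l (3.33%), against 7.90% of all genes. These stretches show where the motifs lie, with the matched letters in capitals and each read 5′ to 3′ on the strand of the gene.
Hspe1, chr1:55088053-55088082, plus strand: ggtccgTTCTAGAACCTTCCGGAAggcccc
Dnajb6, chr5:29735844-29735872, plus strand: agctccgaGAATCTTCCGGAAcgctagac
Hspa1a, chr17:34972223-34972290, minus strand: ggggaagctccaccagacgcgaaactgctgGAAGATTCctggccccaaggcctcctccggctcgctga
Hspb1, chr5:135887772-135887859, plus strand: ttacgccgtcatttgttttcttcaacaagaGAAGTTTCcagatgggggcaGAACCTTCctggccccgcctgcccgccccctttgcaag
Hspb6, chr7:30553170-30553199, plus strand: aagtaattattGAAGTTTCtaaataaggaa
Hspb3, chr13:113663705-113663733, minus strand: gcccacttgtACAGGCTGTgagctaaatg
In the Hspe1 stretch 2 matches of the longer motif overlap, 89 and 84 bases before the start. The stretch lies inside the RefSeq span of Hspd1, its head-to-head neighbour. That of Hspb6 lies inside the RefSeq span of Hspb6 itself, and those of Dnajb6 and Hspb3 overlap the predicted genes Gm5129 and Gm34586. The window of Hspa1b held the same stretch as that of Hspa1a, and the windows of these neighbouring copies had the same base at 296 of 300 positions. For Hspb3 the half-site pair 47 bases before the start is shown, and another match, 168 bases before the start, is not. A match describes letters in a window and shows no binding.

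The libraries and the targeted gene were checked first. Signals of the Nr3c1 probe set 1460303_at, which reports the receptor's transcript, were 377, 307, 307 and 352 on the control arrays 1 to 4 and 134, 79, 76 and 94 on the GR_KO arrays 1 to 4. Its log2 fold change was -1.84 (limma over 19223 probe sets, adjusted p = 0.0164). The brightest Nr3c1 probe set, 1421867_at, is the one that the rule of 1 probe set per gene takes. It had -1.07, with its highest signal, 513, on control replicate 4 (limma over probe sets, adjusted p = 0.923). Of the others, 1457635_s_at had -1.96 (limma over probe sets, adjusted p = 0.0234). The values were -0.32 for 1453860_s_at, -0.38 for 1421866_at and -1.34 for 1431378_at, which lay below the filter. All 17 muscle fibre markers, such as Acta1 and Ckm, had a signal above 0 on every array. Dim genes such as Lep did too, so a signal above 0 says little about cell content, here or for the marker lists below. The dimmest of the 17, Tnni1, had a mean signal of 632, against 19.4 for the median probe set. Control replicate 4 stood apart: its mean correlation with the other controls was 0.928, against 0.955 to 0.967 for each other array with its own group. The ratio of the late to the early Gapdh control probe set, a sign of RNA quality, was 1.20 on that array and between 0.797 and 0.915 on the others. The same ratio for Actb, 1.73, did not set it apart, with 1.75 and 1.84 on GR_KO replicates 1 and 3. Control replicate 4 also had the highest mean log2 signal of the spike-in probe sets, which report added RNA, at 10.6. GR_KO replicate 3 came next with 9.54, and control replicate 3 was lowest with 8.84. The median signal was highest for control replicate 4 too, at 26, followed by 24 for GR_KO replicate 1, and lowest for GR_KO replicate 4, at 18.

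None of the heat shock or J-domain genes differed between GR_KO and control muscle past the threshold. Of the 65 genes tested 0 had an adjusted p under 0.05 in limma, and the smallest adjusted p was 0.880. Over all 11062 genes 6 passed, or 0.0542%, so a count of 0 among 65 is near what the background gives. At an unadjusted p under 0.05 there was 1 gene of 65 (1.54%), against 4.63% of all genes tested, or 2.26% counting lower values in GR_KO alone. The groups did not overlap for 1 gene of 65 (1.54%), against 2.58% of all genes tested, or 1.29% with GR_KO lower. Both counts were of the same gene, Dnajb11. The log2 fold changes, GR_KO against control, ran from -0.44 for Hspa4 to 0.47 for Hspbp1, with a median of 0.00368, against 0.0130 over all genes tested. Both ends of that range rested on control replicate 4: without it Hspa4 had -0.13 and Hspbp1 0.25, and the values ran from -0.46 for Hspb7 to 0.37 for Dnajc17. Of the 65, 34 lay above 0 and 31 below.

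The intervals say how large a difference could have been missed. For 35 of the 65 genes (53.8%) the 95% interval of the log2 fold change lay inside a change of 1.5 times in either direction, against 42.0% of all genes tested. For 62 of the 65 it lay inside 1 log2 unit, a doubling or halving. The exceptions were Hspa4, Hspbp1 and Hspbap1. A p above the threshold does not show that the levels were equal.

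**Figure D1:**
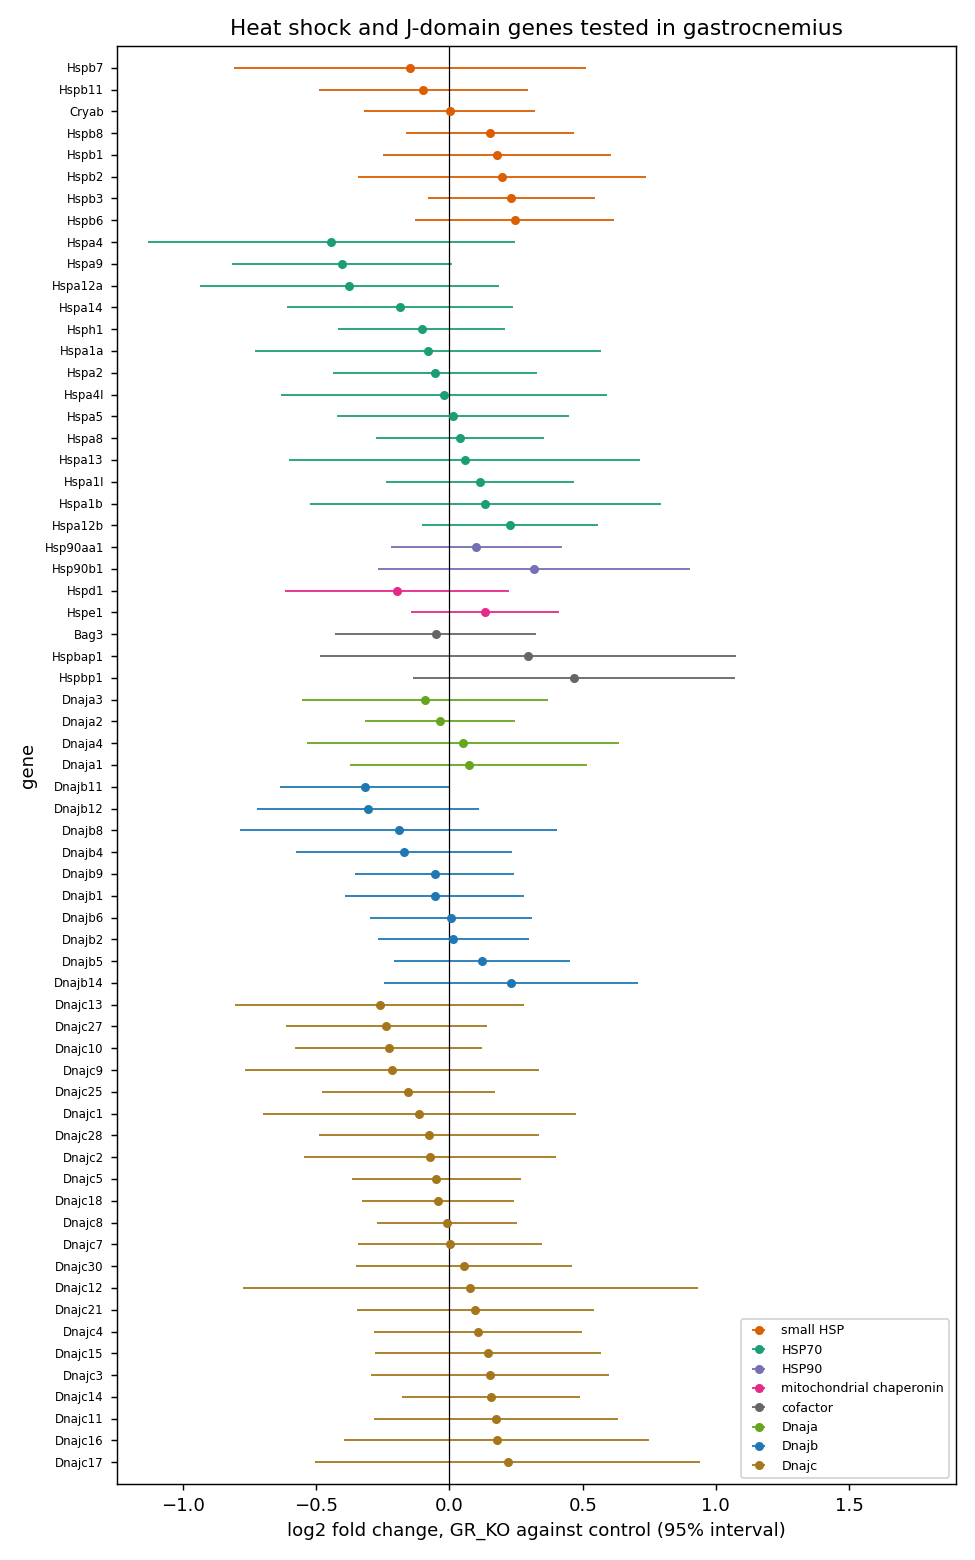
The points are log2 fold changes of the 65 genes tested, GR_KO against control, with 95% intervals from limma, coloured by family (y axis, genes). All but 1 of the intervals reach across 0, and that of Dnajb11, from -0.64 to -0.00095, ends just below it.

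Small heat shock proteins had mean GR_KO signals that were mostly a little above control, and the groups overlapped for every gene tested. Of 9 genes 8 were tested, 6 had a log2 fold change above 0 and 2 below, and the median was 0.17. Cryab, the alphaB-crystallin that guards desmin and other filaments, had signals of 5828, 5421, 5057 and 4558 on the control arrays 1 to 4. On the GR_KO arrays 1 to 4 they were 4360, 4970, 5780 and 5838. The ranges of the groups overlapped almost wholly, with the lowest value on GR_KO replicate 1. Its log2 fold change was 0.00147 ± 0.15 (SE, n = 4 per group), and the 95% interval ran from -0.32 to 0.32 (limma adjusted p = 0.998).

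Hspb6, the small heat shock protein also called Hsp20, had 5240, 5770, 5602 and 3986 on the control arrays and 4736, 6339, 6397 and 6924 on the GR_KO arrays. In each group 1 array was low, control replicate 4 and GR_KO replicate 1, and the other 3 GR_KO signals lay above all controls. The log2 fold change was 0.24 ± 0.17 (SE, limma adjusted p = 0.880). Hspb1, known as Hsp27 and a stabiliser of actin, had its low values on the same arrays. Its signals were 3616, 3919, 4136 and 2816 in control and 2819, 4645, 4244 and 4873 in GR_KO muscle, a log2 fold change of 0.18 ± 0.20 (SE, limma adjusted p = 0.885). A second Hspb1 probe set, 1425964_x_at, was also lowest on these arrays, at 1512 and 1895, and had a log2 fold change of 0.23.

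Hspb8, which works with Bag3 to send damaged filamin to autophagy, had 3339, 3394, 3276 and 2721 in control and 2947, 3483, 4092 and 3661 in GR_KO muscle. Hspb2 and Hspb3 join in one complex in muscle. Hspb2 had 1278, 1561, 1622 and 802 in control and 986, 1681, 1542 and 1752 in GR_KO muscle. Hspb3 had 617, 696, 643 and 553 in control and 683, 648, 899 and 731 in GR_KO muscle. For Hspb8 and Hspb2 the lowest values again lay on control replicate 4 and GR_KO replicate 1, while Hspb3 was low on control replicate 4 alone. The log2 fold changes were 0.15 for Hspb8, 0.20 for Hspb2 and 0.23 for Hspb3, with limma adjusted p-values from 0.880 to 0.900.

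Hspb7, a partner of filamin C, was the muscle member with a lower mean in GR_KO muscle. Its signals were 1834, 1280, 1422 and 625 in control and 1134, 880, 899 and 1535 in GR_KO muscle, so the control range took in the whole GR_KO range. The log2 fold change of -0.15 ± 0.30 (SE) became -0.46 without control replicate 4 (limma adjusted p = 0.995). Hspb11, in spite of its name a subunit of intraflagellar transport, had signals between 50 and 59 in control and between 44 and 60 in GR_KO muscle. Hspb9 was dim, with signals of at most 7.

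**Figure D2:**
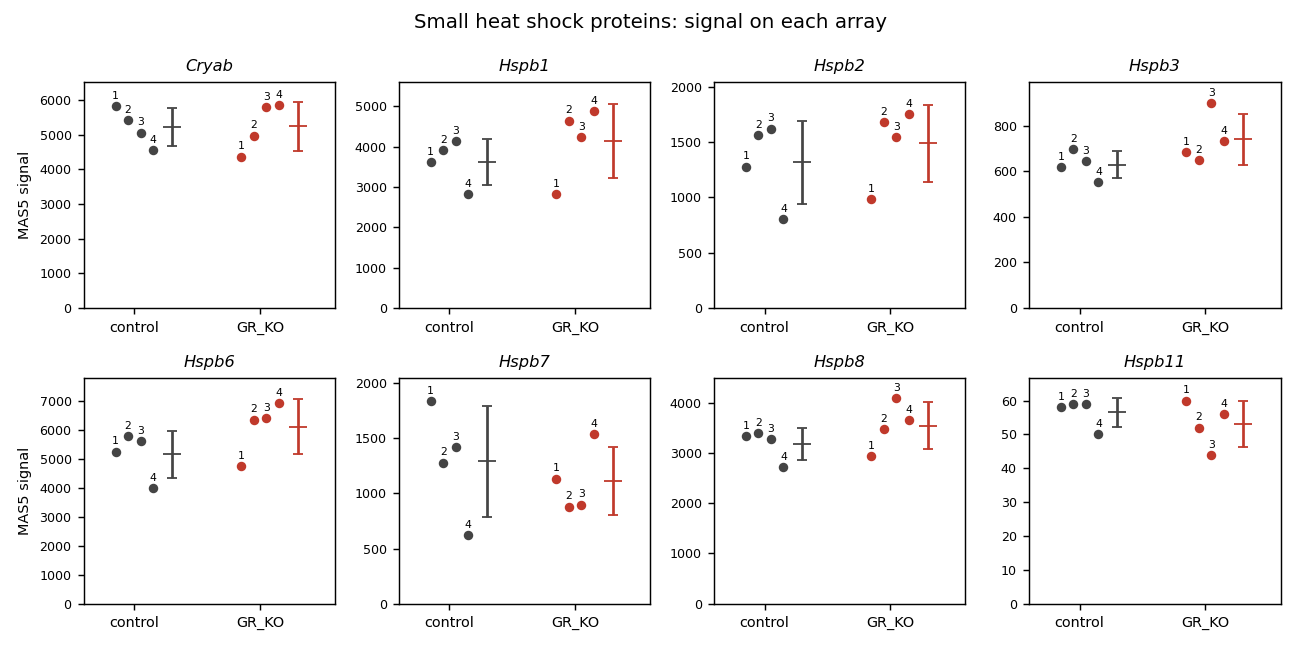
MAS5 signals of the 8 small heat shock genes tested are shown for each array (points, numbered by replicate), with the mean ± SD of each group beside them (n = 4). Control replicate 4 is the lowest control in every panel, and GR_KO replicate 1 is the lowest GR_KO array for Cryab, Hspb1, Hspb2, Hspb6 and Hspb8.

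The small heat shock genes shared an array pattern. Control replicate 4 held the lowest signal of 6 of the 8 genes (75.0%), of 28 of all 65 heat shock and J-domain genes (43.1%), and of 27.4% of all genes tested. It held the highest signal of 0 of the 8, of 15 of the 65 (23.1%) and of 26.0% of all genes tested. Averaged over the 8 genes, the log2 signal relative to each gene's mean was -0.43 on control replicate 4 and -0.18 on GR_KO replicate 1, and between 0.03 and 0.24 on the others. On control replicate 4 the same score was -1.06 over 11 slow fibre markers and 0.85 over 11 fast fibre markers. The slow list takes in Myh2, the myosin of fast type IIA fibres. Myh2 had the highest mean signal of that list (5772) and a log2 fold change of -0.37. On GR_KO replicate 1 the scores were 0.16 for slow and -0.44 for fast fibre markers. Other lists were also low on control replicate 4: the score was -0.83 over the 3 cofactor genes, -0.53 over the 2 HSP90 genes and -0.72 over 13 fibroblast and matrix markers. The 7 partners in chaperone-assisted autophagy were low on the same arrays as the small heat shock genes, at -0.16 on control replicate 4 and -0.26 on GR_KO replicate 1, and between 0.04 and 0.09 on the others. The score over 12 macrophage and leukocyte markers was highest on these arrays, at 0.68 on control replicate 4 and 0.48 on GR_KO replicate 1. On the others it lay between -0.86 and 0.34. Of these markers, Ptprc had 999 and 379 on the 2 arrays, against 10 to 96 on the others. Adgre1 had 50 and 66, against 51 to 93. Whether fibre type, leukocytes, array scaling or RNA quality has a part in the small heat shock signals was not tested. The summed signal of the slow fibre markers ranged from 13835 to 32915 in control and from 22292 to 24036 in GR_KO muscle, and that of the fast fibre markers from 122542 to 278857 and from 113251 to 181976. Of the 11 slow fibre markers 8 had a log2 fold change above 0, against 0 of the 11 fast ones, and no marker of either list was at 0 on any array. The direction of both average scores rests on control replicate 4. On control replicates 1 to 3 the score was 0.66, -0.25 and 0.38 for slow and -0.15, -0.18 and -0.33 for fast fibre markers. On GR_KO replicates 2 to 4 it was 0.13, -0.04 and 0.02 for slow and 0.24, 0.21 and -0.21 for fast ones. In bulk tissue, fewer cells of a type and less RNA per cell cannot be told apart.

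Leaving out these arrays moved the small heat shock values without a call. The median log2 fold change of the 8 genes was 0.02 when control replicate 4 was left out, 0.25 when GR_KO replicate 1 was, and 0.16 when neither was used. Without GR_KO replicate 1 the log2 fold changes of Hspb6 and Hspb1 were 0.36 and 0.35 (limma unadjusted p = 0.0362 and 0.0428, adjusted p = 0.445 and 0.458), and without control replicate 4 they were 0.13 and 0.06. Without control replicate 4 those of Hspb2 and Hspb8 were -0.02 and 0.08. With both arrays left out 5 of the 65 genes had an unadjusted p under 0.05 (7.69%), against 10.8% of all genes tested. They were Hspb6, Hspb1, Hspb7, Hspa9 and Dnajc10, and their smallest adjusted p was 0.421.

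**Figure D3:**
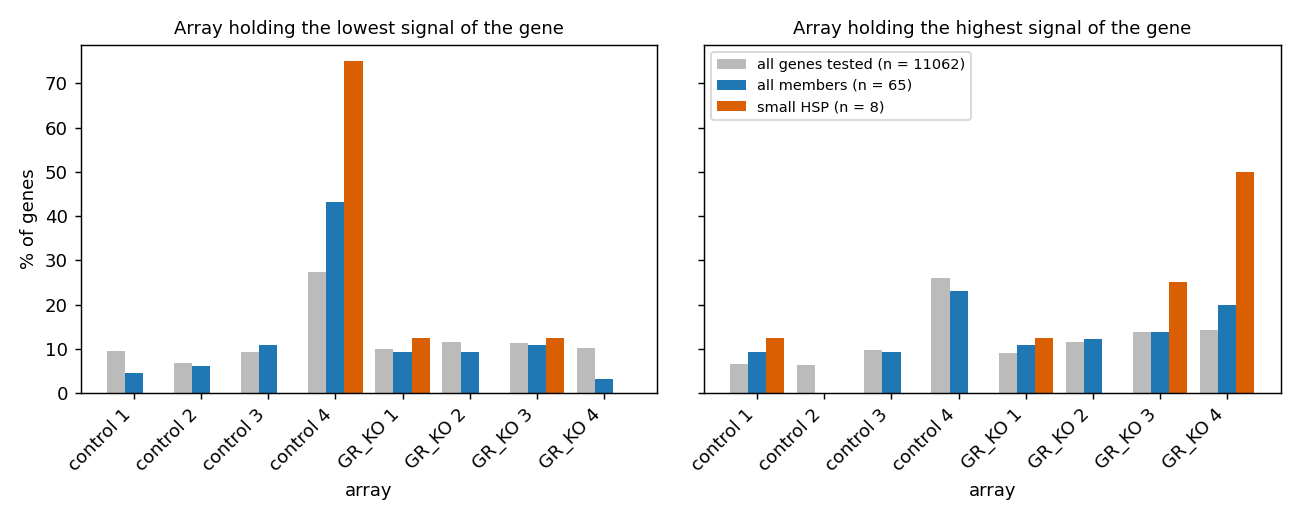
Bars give the share of genes (y axis, %) whose lowest (left) or highest (right) signal lay on each array (x axis), for all 11062 genes tested, the 65 heat shock and J-domain genes and the 8 small heat shock genes. Control replicate 4 holds the lowest signal of 75.0% of the small heat shock genes and the highest of 0%.

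All 14 members of the HSP70 family passed the signal filter, and 0 passed the test. Their log2 fold changes ran from -0.44 to 0.23, with 6 above 0 and 8 below and a median of -0.04. Hspa8, the constitutive HSP70 of the cytosol, had 5269, 4875, 4275 and 5500 on the control arrays and 5196, 5238, 5788 and 4289 on the GR_KO arrays. High and low arrays were found in both groups, and the log2 fold change was 0.04, with a 95% interval from -0.28 to 0.36. Its further probe sets above the filter had 0.04, 0.15 and -0.71; the last, 1431182_at, was dim at a mean signal of 65.9 and had 158 on control replicate 4 against 62 to 73 on the other controls.

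Hspa5, the HSP70 of the endoplasmic reticulum known as BiP, had 1187, 731, 801 and 1308 in control and 1167, 968, 969 and 858 in GR_KO muscle. The GR_KO range lay inside the control range, and the log2 fold change was 0.01 (95% interval from -0.42 to 0.45). Probe sets of this gene disagreed. At 1447824_x_at the signals were 316, 308, 198 and 260 in control and 345, 459, 491 and 320 in GR_KO muscle, which do not overlap, with a log2 fold change of 0.58 (limma over 19223 probe sets, unadjusted p = 0.0139). At 1427464_s_at it was -0.11.

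Hspa9, the mitochondrial HSP70 that pulls imported proteins into the matrix, had 779, 598, 827 and 1003 in control and 761, 520, 499 and 638 in GR_KO muscle. Control replicate 2 lay among the GR_KO signals and GR_KO replicate 1 among the controls. The log2 fold change was -0.40 ± 0.19 (SE, limma unadjusted p = 0.0544, adjusted p = 0.880). Another bright Hspa9 probe set, 1418503_at, had 682, 615, 624 and 651 in control and 647, 562, 710 and 622 in GR_KO muscle, a log2 fold change of -0.02. A dimmer one above the filter, 1447728_x_at, had 0.36, of the opposite sign to the first. The mean over the probe sets of the gene gave -0.02. Without control replicate 4 the value was -0.29, and without GR_KO replicate 1 it was -0.52 (adjusted p = 0.995 and 0.419).

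The stress-inducible copies Hspa1a and Hspa1b had weak signals in both groups. Hspa1a had 52, 47, 80 and 27 in control and 43, 52, 45 and 42 in GR_KO muscle. Hspa1b had 56, 51, 59 and 28 in control and 54, 37, 44 and 78 in GR_KO muscle. These near-identical copies may share transcripts on the array, so the values of each are uncertain. Their log2 fold changes were -0.08 and 0.13, each with an SE of 0.30.

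Among the exchange factors of the family, Hsph1 had 859, 634, 647 and 651 in control and 636, 589, 739 and 622 in GR_KO muscle, a log2 fold change of -0.10. Hspa4 had 279, 224, 243 and 593 in control and 320, 202, 153 and 266 in GR_KO muscle. Its largest value, on control replicate 4, was more than double any other control, and the log2 fold change of -0.44 ± 0.31 (SE, limma adjusted p = 0.880) was -0.13 without that array and -0.26 without GR_KO replicate 3. Its further probe sets had 0.05 and 0.52, of the opposite sign. Hspa12b, an HSP70 relative known from endothelial cells, had 102, 123, 118 and 113 in control and 139, 113, 155 and 129 in GR_KO muscle, a log2 fold change of 0.23 ± 0.15 (SE, limma adjusted p = 0.880). Of 14 endothelial markers 13 also had a log2 fold change above 0 (median 0.37), and their summed signal was 4633 to 5638 in control and 5950 to 8239 in GR_KO muscle. No endothelial marker was at 0 on any array, and 0 had an adjusted p under 0.05 in limma. At an unadjusted p under 0.05 there were 4 of the 14, against 4.63% of all genes tested, and their part in the Hspa12b value was not tested.

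For both of the 2 HSP90 genes found by the rule the groups overlapped. Hsp90aa1, the inducible cytosolic HSP90 that holds steroid receptors, had 601, 669, 590 and 601 in control and 581, 851, 640 and 597 in GR_KO muscle. Only GR_KO replicate 2 stood above the rest, and without it the log2 fold change of 0.10 became -0.02. Hsp90b1, the HSP90 of the endoplasmic reticulum, had 451, 550, 444 and 223 in control and 390, 673, 503 and 448 in GR_KO muscle. The value on control replicate 4 was the lowest of all 8, and the log2 fold change of 0.32 ± 0.27 (SE, limma adjusted p = 0.880) was 0.04 without that array and 0.17 without GR_KO replicate 2. A second probe set, 1415889_a_at, gave 0.03 and had its highest control signal, 445, on control replicate 4.

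Hspd1 and Hspe1, the mitochondrial chaperonin and its lid, share the promoter region with the heat shock units shown above. Hspd1 had 1001, 679, 961 and 1171 in control and 1059, 689, 738 and 826 in GR_KO muscle. Hspe1 had 1102, 1056, 1074 and 878 in control and 1021, 1155, 1116 and 1207 in GR_KO muscle. The array order differed between these partners, since control replicate 4 was the highest of all for Hspd1 and the lowest for Hspe1. The log2 fold changes were -0.20 ± 0.19 for Hspd1 and 0.13 ± 0.13 for Hspe1 (SE, limma adjusted p = 0.881 for both), and without control replicate 4 they were -0.09 and 0.06.

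Bag3, the scaffold that joins HSP70 to Hspb8 at the Z-disc, had 572, 524, 704 and 427 in control and 513, 489, 478 and 650 in GR_KO muscle. The GR_KO range lay inside the control range, and the log2 fold change was -0.05 (95% interval from -0.43 to 0.33). Hspbp1, an exchange factor of HSP70, had 94, 198, 165 and 80 in control and 141, 165, 191 and 202 in GR_KO muscle. The control arrays split into a low and a high pair, and the log2 fold change of 0.47 ± 0.28 (SE) was not past the threshold (limma adjusted p = 0.880). It was 0.25 without control replicate 4 and 0.69 without control replicate 2 (limma unadjusted p = 0.0202, adjusted p = 0.651). Hspbap1, named for its binding to Hspb1, had 42, 52, 44 and 16 in control and 41, 44, 57 and 34 in GR_KO muscle. The lowest value lay on control replicate 4, and the log2 fold change of 0.30 became -0.08 without control replicate 4.

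J-domain genes were the largest group, with 44 genes, of which 36 were tested and 0 passed the threshold. Of the 36, 17 had a log2 fold change above 0 and 19 below, the median was -0.02, and the values ran from -0.32 to 0.23. The interval lay inside a change of 1.5 times for 22 of them (61.1%). The other 8 genes were dim: Dnajb3, Dnajb7, Dnajb13, Dnajc5b, Dnajc5g, Dnajc6, Dnajc22 and Dnajc24 had mean signals between 2.33 and 14.5.

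The Dnaja genes, which are the closest relatives of the bacterial J-protein, had log2 fold changes between -0.09 and 0.07. Dnaja2 had 2976, 2706, 2546 and 2371 in control and 2456, 2406, 2861 and 2607 in GR_KO muscle. Dnaja3, the mitochondrial member, had 696, 551, 772 and 431 in control and 531, 458, 534 and 762 in GR_KO muscle. Dnaja4 had 398, 441, 587 and 225 in control and 380, 343, 369 and 555 in GR_KO muscle. In these 3 genes control replicate 4 was the lowest of the 8 arrays. Dnaja1, a heat-inducible partner of Hspa8, went the other way, with 258, 199, 225 and 379 in control and 316, 296, 240 and 238 in GR_KO muscle, and was highest on that array. Without control replicate 4 the log2 fold changes were -0.21 for Dnaja4 and 0.26 for Dnaja1.

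Dnajb11, a J-protein of the endoplasmic reticulum that serves BiP, was the one gene whose groups did not overlap. Its signals were 175, 160, 180 and 189 on the control arrays and 155, 119, 157 and 136 on the GR_KO arrays. The highest GR_KO signal, 157, was just below the lowest control, 160. The log2 fold change was -0.32 ± 0.14 (SE), 1.25-fold lower in GR_KO muscle, with limma unadjusted p = 0.0494 and adjusted p = 0.880, so it did not pass the threshold. The direction stayed below 0 with every single array left out, from -0.37 to -0.24, and the unadjusted p was above 0.05 without control replicates 1, 3 or 4 or GR_KO replicates 2 or 4. This gene had 1 probe set above the filter.

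Other Dnajb genes differed less. Dnajb12, a J-protein of the membrane of the endoplasmic reticulum, had 214, 151, 178 and 227 in control and 138, 205, 153 and 129 in GR_KO muscle, a log2 fold change of -0.31 ± 0.19 (SE, limma adjusted p = 0.880). Its ranges crossed at control replicate 2 and GR_KO replicate 2. Dnajb6, whose mutations cause a limb-girdle muscular dystrophy, had 739, 602, 569 and 725 in control and 719, 622, 705 and 594 in GR_KO muscle, with a log2 fold change of 0.00731 and a 95% interval from -0.30 to 0.31. Dnajb5 had 1869, 2085, 1842 and 1485 in control and 1627, 1977, 2117 and 2195 in GR_KO muscle (log2 fold change 0.12). Dnajb9, which helps remove unfolded proteins from the endoplasmic reticulum, had 613, 524, 536 and 463 in control and 587, 471, 504 and 490 in GR_KO muscle (-0.06). The heat-inducible Dnajb1 had 136, 139, 107 and 158 in control and 128, 128, 125 and 134 in GR_KO muscle (-0.05), with the GR_KO signals close together inside the control range.

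The Dnajc genes are a mixed class that mostly act at one place in the cell. Of 22 tested 11 lay above 0 and 11 below. Dnajc8, a spliceosome protein, had 1437, 1274, 1223 and 1327 in control and 1245, 1291, 1440 and 1247 in GR_KO muscle, a log2 fold change of -0.01 (95% interval from -0.27 to 0.25). Dnajc15, a protein of mitochondrial import, had 928, 1102, 1175 and 667 in control and 892, 1096, 951 and 1286 in GR_KO muscle (0.14). Dnajc21, which helps make ribosomes, had 804, 684, 539 and 479 in control and 716, 865, 557 and 539 in GR_KO muscle (0.10). In all 3 the groups overlapped over most of their range.

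Dnajc27 and Dnajc10 had the smallest p-values of this class. Dnajc27, a small GTPase with a J-domain, had 384, 365, 427 and 299 in control and 324, 236, 324 and 374 in GR_KO muscle, a log2 fold change of -0.24 ± 0.17 (SE). Dnajc10, a disulfide reductase of the endoplasmic reticulum, had 288, 273, 300 and 271 in control and 299, 186, 265 and 230 in GR_KO muscle, -0.23 ± 0.16 (SE, limma adjusted p = 0.880 for both). Without GR_KO replicate 2, the lowest array of both, the values were -0.11 and -0.10. For Dnajc10 only GR_KO replicate 1 lay among the controls, and its other probe sets above the filter had 0.04 and -0.26.

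**Figure D4:**
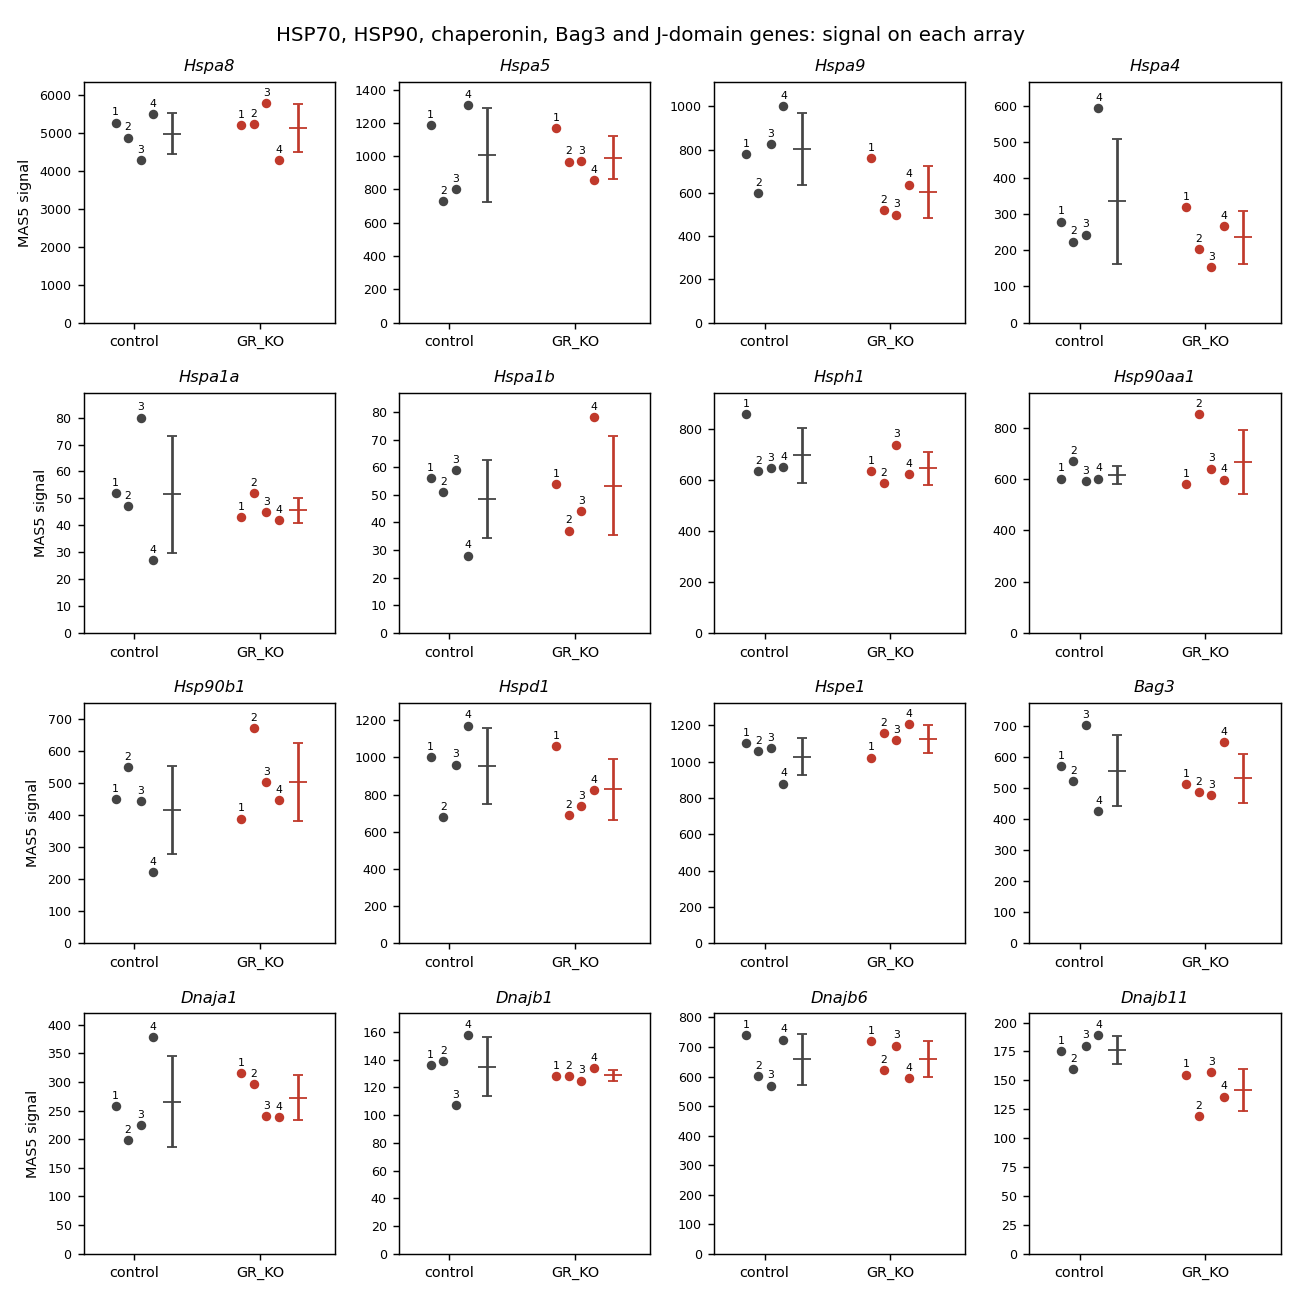
MAS5 signals of 16 HSP70, HSP90, chaperonin, Bag3 and J-domain genes on each array (points, numbered by replicate), with the mean ± SD of each group (n = 4). The groups overlap in every panel but that of Dnajb11, where the GR_KO signals of 119 to 157 lie below the control signals of 160 to 189.

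**Figure D5:**
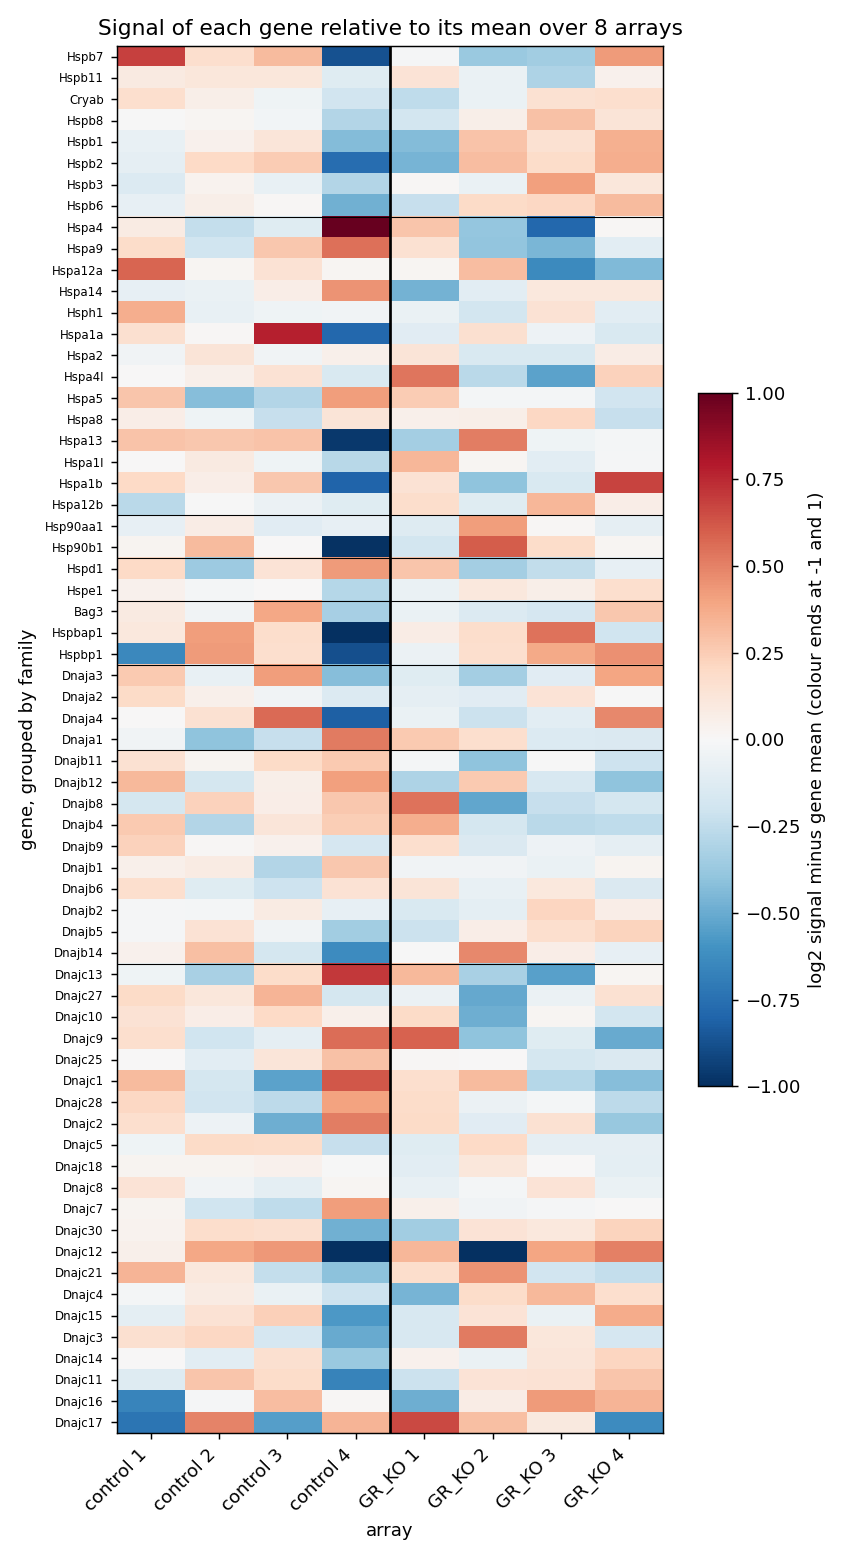
Each row is 1 of the 65 genes tested and each column 1 array; colour gives the log2 signal minus the mean of the gene over the 8 arrays, and lines divide the families and the groups. Control replicate 4 has strong colours in both directions, low for Hspb7, Hsp90b1 and Dnajc12 and high for Hspa4 and Dnajc13.

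The genes with heat shock units in the promoter window are given here by their values alone. The 4 genes with the longer motif had log2 fold changes of -0.20 for Hspd1, 0.13 for Hspe1, 0.01 for Dnajb6 and -0.10 for Hsph1. The 14 tested genes with GAANNTTC had a median of 0.06, with 9 above 0 and 5 below, against -0.04 over the 39 tested genes whose window lacked it. Hspb3 and Hspa1l, with the half-site pair of the receptor, had 0.23 and 0.11. These are descriptions of small groups, without a test.

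A gene's probe sets often gave different signs. The 74 genes had 178 probe sets, and 129 of these lay above the filter. Of 41 genes with more than 1 such probe set, 17 had log2 fold changes of one sign and 24 of both signs. In the fit of single probe sets 0 of the 129 passed the adjusted threshold and 4 had an unadjusted p under 0.05, where 802 of all 19223 did.

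Partners of these chaperones also stayed below the threshold, with 1 exception. Of 96 partner genes listed by name 89 were tested, and by limma's adjusted p 0 of these rose and 1 fell. At an unadjusted p under 0.05, 1 was higher and 1 lower (1.12% each). Over all genes tested 0.0542% passed the adjusted and 4.63% the unadjusted threshold. The exception was Fkbp5, a co-chaperone of HSP90 that glucocorticoids are known to induce. Its signals were 345, 225, 375 and 242 in control and 84, 76, 57 and 88 in GR_KO muscle, and it fell by 1.95 on the log2 scale (limma adjusted p = 0.0132). Its log2 fold change lay between -2.09 and -1.81 under all 20 alternatives, and its adjusted p was under 0.05 in 13 of them. The call was lost without a filter (adjusted p = 0.0863), with the mean of probe sets (0.238), with the replicate block (0.128), and without control replicates 1 or 3 or GR_KO replicates 2 or 4 (0.111, 0.0766, 0.0827 and 0.0582). Of the 17 HSP90 co-chaperones tested, 8 had a log2 fold change above 0 and 9 below, with a median of -0.02. Rpap3, a member of a complex that works with HSP90, had -0.46 ± 0.22 (SE, limma adjusted p = 0.880).

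The other partner lists had no member past the threshold. Of 17 HSP70 co-chaperones 6 lay above 0 and 11 below (median -0.07), and those with the smallest p were Sil1, an exchange factor of BiP (0.35), and Bag2 (0.33). Of 16 chaperonin and prefoldin subunits 8 lay above and 8 below (median -0.01), with -0.42 for Cct8 and 0.34 for Pfdn1. Of 14 genes listed for chaperones, folding enzymes and stress factors of the endoplasmic reticulum 10 lay above and 4 below (median 0.08). They include the stress transcription factors Atf6 (-0.31), Xbp1 (-0.08) and Ddit3 (0.13), and Herpud1 (0.05), which acts in degradation. Serpinh1, the collagen chaperone, had 483, 735, 625 and 323 in control and 624, 744, 994 and 854 in GR_KO muscle, a log2 fold change of 0.61 ± 0.24 (SE, limma unadjusted p = 0.0278, adjusted p = 0.880), which was 0.39 without control replicate 4. Of 13 fibroblast and matrix markers 10 also lay above 0 (median 0.34), with a summed signal of 7731 to 15202 in control and 13533 to 19247 in GR_KO muscle and none at 0, and their part in the Serpinh1 value was not tested. Calr, a calcium-binding chaperone of the same compartment, had 0.29.

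The smaller partner lists were alike in this. Hsf1 was listed among the heat shock factors but had no probe set of 1 gene under that name, and Hsf5 was too dim to be tested. Of 6 heat shock factors and regulators 3 lay above 0 and 3 below, with -0.74 ± 0.41 (SE) for the deacetylase Sirt1, which had 129 on control replicate 4 against 38 to 46 on the other controls and -0.33 without that array, and -0.26 for the kinase Cdk12. Of the 4 myosin chaperones 1 lay above and 3 below, with -0.19 for Unc45b, the muscle chaperone of myosin heads, and -0.19 for Smyd2. Of 8 mitochondrial chaperones and proteases 6 lay above and 2 below, with 0.34 for Clpp and -0.41 for Clpx, the subunits of one protease. Of 7 partners in chaperone-assisted autophagy 3 lay above and 4 below, with -0.32 for Vps18 and 0.28 for Synpo2l.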

How the data were processed

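The deposited table holds 1 signal intensity for each probe set on each array. Per the submitters' processing notes, the authors used MAS5; no version or scaling target is named there. Of 45101 probe sets 64 control probe sets were left out, and 34945 had a single gene. Deposited signals were taken to log2 without a pseudocount or further normalization. A 0 was replaced by the lowest signal above 0 on its array, for 1 value among the tested genes. Each gene took its brightest probe set over all 8 arrays and was tested where the mean log2 signal exceeded that of the median probe set (signal 19.4). Signals of different probe sets are not comparable as levels. Precision is limited by how many arrays there are.

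GR_KO was compared with control in limma 3.58.1 (R 4.3.3; lmFit, eBayes with trend, two-sided), adjusting p by Benjamini-Hochberg across the 11062 genes tested. The steps were tested on simulated data. Figures used Python 3.11.15. Nothing in the labels says whether each sample is its own animal; the p-values rest on the spread among these samples alone, and that spread may be technical.

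Within each family the 3 brightest members, the 2 with the smallest p and any with an unadjusted p under 0.05 or groups that did not overlap are given on every array. For each partner list the 2 genes with the smallest p are named. Hspa1a, Hspa1b, Hspa4, Hsph1, Hspa1l, Hspb2, Hspb7, Hspb8, Hspb9, Hspb11, Dnajb1, Dnajc12, Dnajc13 and Dnajc17, with the dim genes and the further probe sets, were named after their values were seen. Members and lists were chosen with earlier results of these data known.

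Same-numbered samples were not treated as pairs. Alternatives are quantile normalization, median centring, pseudocounts, other filters, mean of probe sets, other variance settings, array weights, a replicate block and leaving out each array. Leaving out 2 arrays together and testing every probe set were chosen after seeing the data.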

Additional observations from a re-analysis of the deposited data

Results flagged for a closer look

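Hsp90aa1 on control replicate 2, at a signal of 669, stood apart from the other 3 controls, at 590 to 601: the gap was 0.853 of the range of the group on the log2 scale, above Dixon's 95% critical value for 4 samples. It was the only one of 58 groups of 4 samples checked (29 genes in 2 groups) that did so, and chance alone gives about 1 in 20.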

How the results depend on the processing

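The count of heat shock and J-domain genes past the threshold was 0 under every alternative, every single-gene probe set included, and with any array left out. Their median log2 fold change, 0.00368, moved by less than the SD between arrays of their mean, 0.0634, under every alternative; it ranged from -0.05 to 0.02 with single arrays left out. The count of 6 among all genes was 0 without a filter, 1 with the mean of probe sets, 2 in eBayes without trend, 10 with array weights and 1 with the replicate block. With single arrays left out it ranged from 0 to 5: 0 without control replicates 1 or 3 or GR_KO replicates 2 or 4, 2 without GR_KO replicate 3, 3 without control replicate 2, 4 without control replicate 4 and 5 without GR_KO replicate 1. It was 13 without both control replicate 4 and GR_KO replicate 1. Same-numbered deviations correlated at -0.192, 0.181, 0.111 and -0.395. These values gave no sign that the replicate numbers pair the samples, but they cannot exclude it. The block made no heat shock gene pass.

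Of 29 genes named by the rule, 13 kept their sign and their side of the threshold under all alternatives. The other 16 changed sign under at least 1, and the cause was not tested. For 25 of the 29, leaving out 1 array changed the sign or moved the log2 fold change by over 1.5 times. Under quantile normalization Dnajb6, Hspa8, Hspa5 and Cryab had -0.0210, -0.0113, -0.0217 and -0.0669. Under median centring Dnajc8 had 0.0211. With the mean of probe sets Dnaja4, Dnajb5, Dnajb6, Hspa8 and Cryab had -0.0075, -0.0832, -0.10, -0.12 and -0.0071. With array weights Dnaja4, Dnajc8 and Dnajc21 had -0.15, 0.0228 and -0.0120. Without both arrays Hspbap1, Dnaja4, Dnajc8 and Dnajc21 had -0.0575, -0.18, 0.0167 and -0.0636, and Dnajb9, with no change of sign, -0.19. With single arrays left out the ranges were -0.17 to 0.0683 for Bag3, -0.0614 to 0.0862 for Cryab, -0.0516 to 0.26 for Dnaja1, -0.0871 to 0.0222 for Dnaja2 and -0.25 to 0.0314 for Dnaja3. They were -0.21 to 0.25 for Dnaja4, -0.0600 to 0.0657 for Dnajb6, -0.12 to 0.0129 for Dnajb9, -0.0239 to 0.25 for Dnajc15, -0.0352 to 0.23 for Dnajc21 and -0.0584 to 0.0330 for Dnajc8. For Hsp90aa1, Hspa5, Hspa8 and Hspbap1 they were -0.0213 to 0.16, -0.13 to 0.15, -0.0308 to 0.12 and -0.0831 to 0.48. Dim probe sets limit the values of Hspa1a, Hspa1b and the 9 untested genes.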
